A study of Amphimedon queenslandica with 43 samples.

Results

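The age change of sponge larvae kept under natural day-night light was described from 15 of the 43 single larvae in the series, chosen by their column names in the table of raw counts. These were 8 larvae at 9 hours post emergence (hpe) and 7 larvae at 1 hpe of the demosponge Amphimedon queenslandica. All 15 larvae had been collected in a window of 30 minutes that opened at 11 am, and they were in filtered sea water under the natural light cycle by 0.5 hpe. The series holds 14 further larvae kept in constant dark, where a neutral density filter passed 6.6% of the daylight, and 14 kept in constant light from a fluorescent tube, sampled at the same ages. RNA of each whole larva was amplified and sequenced with CEL-Seq2, a barcoded method for very small samples that reads the 3′ ends of poly(A) transcripts. The labels give no parent, strain or batch for any larva.

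Larvae of this sponge are brooded by the parent, leave it swimming with cilia and steer by a ring of pigmented cells at the rear, whose long cilia respond to light. No opsin is known from sponges, and a cryptochrome expressed around the pigment ring is regarded as a likely light sensor. After emergence a larva must first become competent before it can answer cues of the sea floor, such as coralline algae, by settling and beginning metamorphosis. The study took the younger age to stand for larvae before competence and the older age for competent larvae. Since all larvae were collected at the same hour, age cannot be told apart from the time of day at sampling, and the ambient light of the day-night regime may itself have changed in between.

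The deposited table counts 47411 transcript models. Of these, 14188 had enough counts to be tested, and they held 99% to 99.3% of the counts of every day-night larva. The identifiers carry no gene names in the files, and 0 of them matched the reference gene table used, so no function is given for any model and 2 models are named in each direction. Total counts were 1890954 to 3342040 per larva at 9 hpe, with a median of 2427294, and 2374508 to 3650751 at 1 hpe, with a median of 3106917. The mean total at 9 hpe was 0.841 times that at 1 hpe, and the difference did not pass (exact two-sided permutation test, adjusted p = 0.0738 over 4 measures per larva). It passed without replicate 2 at 9 hpe (adjusted p = 0.0256, exact permutation test) or without replicate 4 at 1 hpe (adjusted p = 0.0373). Single counts reached at most 8192, a value that occurred 10 times in the day-night larvae, so counts of the most abundant models were limited from above. Whether high counts below that limit are compressed too is not settled by the sources used here. If so, the fold changes of abundant models would be affected, including the named Aqu2.1.41799_001 and Aqu2.1.26042_001, which reached 3783 and 3071 counts. The 154 models with 4000 or more counts in any of the 43 larvae are named nowhere for that reason.

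Between 9 and 1 hpe, 3127 of the 14188 tested models changed, which is 22% of them (edgeR quasi-likelihood F test over all 43 larvae, Benjamini-Hochberg adjusted p below 0.05). Of all tested models 9.94% rose, which is 1410 models, and 12.1% fell, which is 1717 models. The share that rose depended on the scaling and varied with the models and larvae included. Of the called models 45.1% rose, and 42.4% to 49.2% with 1 larva left out. Without models of 4000 or more counts in any larva, 1512 rose and 1559 fell (49.2% risen). With library totals alone in place of TMM factors, 2334 models rose and 1140 fell, because the median log2 fold change of all tested models was then 0.19 and not 0.01. As whole larvae were sequenced, less RNA of a transcript per cell and fewer cells that hold it cannot be told apart.

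Among the risen models the median log2 fold change was 0.83, 537 of them (38.1%) rose at least 2-fold, 161 at least 4-fold and 66 at least 8-fold. The fallen models had a median log2 fold change of -0.97, and 824 of them (48%) fell at least 2-fold, 189 at least 4-fold and 73 at least 8-fold. A fallen model in the 8-fold class was at a low level at 9 hpe, varied widely between larvae and had overlapping ages. How many such models were among the large changes was not counted. In 336 of the risen and 466 of the fallen models, no larva of one age overlapped any larva of the other. Over all tested models the ages did not overlap in 5.72%, with 2.41% higher and 3.31% lower at 9 hpe, and 802 of these 811 models were among those called.

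The most clearly risen model by p-value, Aqu2.1.44215_001, had between 125.9 and 259.9 CPM in the 8 larvae at 9 hpe, with a median of 211 CPM. In the 7 larvae at 1 hpe it had between 17.9 and 24.2 CPM, with a median of 19.8 CPM. CPM are counts scaled to a common library size with TMM factors. Every larva at 9 hpe lay above every larva at 1 hpe, the lowest at 5.20 times the highest younger one. The mean was 204.7 ± 45.2 CPM at 9 hpe (SD, n = 8) and 20.7 ± 2.38 CPM at 1 hpe (n = 7), which is 3.30 ± 0.17 SE on the log2 scale (adjusted p = 9.77e-18 by edgeR).

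Among risen models below 4000 counts in every larva, Aqu2.1.26042_001 had the largest gain in mean level. It stood at 580 to 1381 CPM at 9 hpe, with a median of 716 CPM. At 1 hpe it stood at 68.6 to 113 CPM, with a median of 75.4 CPM. Its ages were again separate, although the highest older larva had 2.38 times the level of the lowest one. The means were 808 ± 279.5 CPM at 9 hpe (SD, n = 8) and 85.7 ± 17.1 CPM at 1 hpe (n = 7). On the log2 scale it rose by 3.23 ± 0.19 SE (adjusted p = 2.39e-16 by edgeR).

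Among the fallen models that met the conditions for naming given below, Aqu2.1.28587_001 had the smallest p-value. It had 81.1 to 166 CPM at 9 hpe, with a median of 135 CPM, and 695 to 1148 CPM at 1 hpe, with a median of 812 CPM. The lowest larva at 1 hpe lay at 4.18 times the highest larva at 9 hpe. Means were 134 ± 25.2 CPM at 9 hpe (SD, n = 8) and 850 ± 165 CPM at 1 hpe (n = 7), a change of -2.67 ± 0.14 SE on the log2 scale (adjusted p = 1.28e-17 by edgeR).

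Aqu2.1.41799_001 lost the most in mean level after Aqu2.1.28587_001, among fallen models below 4000 counts in every larva. It ranged from 101 to 428 CPM at 9 hpe, with a median of 238 CPM, and from 577 to 1829 CPM at 1 hpe, with a median of 781 CPM. The ages did not overlap, but the gap was narrow at 1.35-fold and the larvae of each age differed among themselves up to 4.25-fold at 9 hpe and 3.17-fold at 1 hpe. Its means were 247 ± 101 CPM at 9 hpe (SD, n = 8) and 932 ± 419 CPM at 1 hpe (n = 7), a change of -1.92 ± 0.26 SE on the log2 scale (adjusted p = 4.83e-07 by edgeR).

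**Figure D1:**
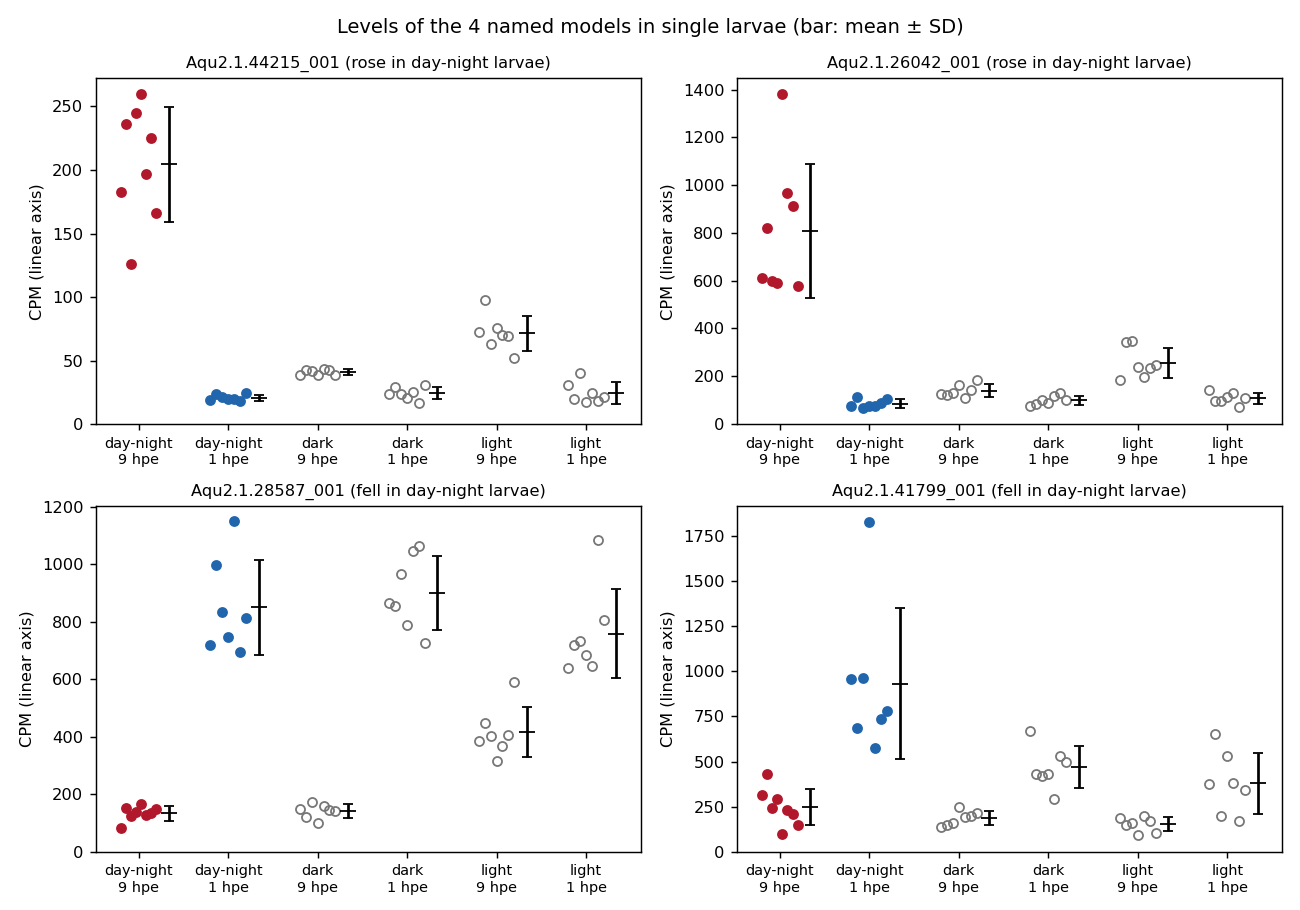
Level in CPM (linear axis from 0) of the 4 named models in every larva of the series. Each point is 1 larva and the black bar gives mean ± SD. Filled points are day-night larvae, with 9 hpe left of 1 hpe, and open points are larvae of the other regimes. In day-night larvae the ages are separate for all 4 models, and for the pair of risen models the day-night larvae at 9 hpe lie above all other larvae.

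The balance of risen and fallen models differed with abundance. Of the 349 models with a mean of 500 CPM or more over the 15 larvae, 159 fell (45.6%) and 22 rose (6.3%). Between 100 and 500 CPM, 562 of 2043 models fell (27.5%) and 245 rose (12%). In the middle range of 20 to 100 CPM the balance was the other way, with 668 of 4405 models risen (15.2%) and 487 fallen (11.1%). Between 5 and 20 CPM, 392 of 4357 rose and 336 fell, and below 5 CPM 83 of 3034 rose and 173 fell. The median log2 fold change was -0.34 in the most abundant class and 0.10 in the class of 20 to 100 CPM. More models fell than rose at 500 CPM or more, and more rose than fell between 5 and 100 CPM, under TMM, under median-of-ratios factors and under library totals alone. With library totals alone the balance turned between 100 and 500 CPM, where 423 rose and 375 fell, and below 5 CPM, where 142 rose and 119 fell. Counts at the upper limit move with the abundant class. Of the 154 models with 4000 or more counts in any larva, 78 fell and 10 rose, and their part in the class result was not tested.

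**Figure D2:**
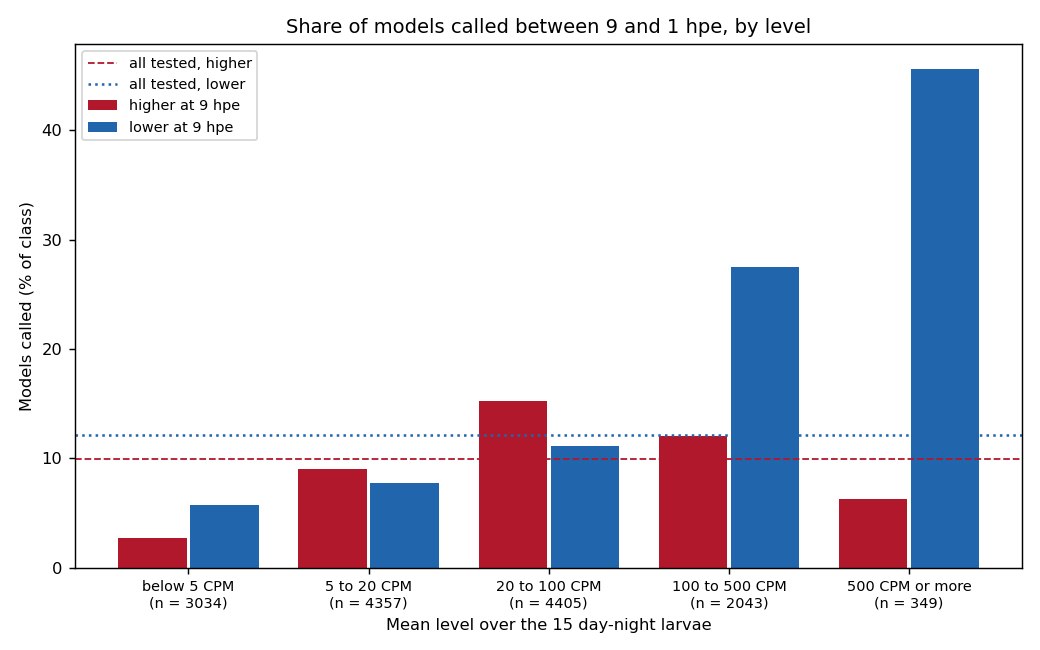
Percent of tested models called as risen (red, left bar) or fallen (blue, right bar) between 9 and 1 hpe in day-night larvae, by the mean level of the model over the 15 larvae in CPM. Dashed and dotted lines give the percentages over all tested models, 9.94% and 12.1%. The fallen share reaches 45.6% in the most abundant class, where the risen share is 6.3%.

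The risen models together took up 13.05% to 14.2% of all counts in the larvae at 9 hpe and 5.61% to 7.10% at 1 hpe. The fallen models took up 21.95% to 24% at 9 hpe and 32.8% to 37.5% at 1 hpe. These shares describe models chosen on the same larvae and carry no test. The risen models had a median level of 43 CPM at 9 hpe and 22.3 CPM at 1 hpe, and the fallen ones 43.5 CPM at 9 hpe and 86.6 CPM at 1 hpe.

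The number of models found was lower in the older larvae, narrowly past the threshold. When every larva was thinned to 1890954 counts, the lowest total among the 15, a count was found for 18581 to 20543 models at 9 hpe, with a median of 19762. At 1 hpe it was found for 19643 to 21139 models, with a median of 20741. The ages overlapped, and the means differed by -847 models (exact two-sided permutation test, adjusted p = 0.0472 over 4 measures). The call was lost without replicate 4 at 1 hpe (-793 models, adjusted p = 0.0513, exact permutation test) or replicate 6 at 1 hpe (-754 models, adjusted p = 0.0546), when all larvae were thinned to 1000000 counts (-595 models, adjusted p = 0.0637), and when a model needed 3 counts to be found (-292 models, adjusted p = 0.188).

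The 154 models with 4000 or more counts in any of the 43 larvae were left out here, and shares are of the remaining counts. The 100 most abundant of the other models, picked in each larva separately, took 8.81% to 11.6% at 9 hpe, with a median of 9.33%. At 1 hpe they took 9.996% to 11.2%, with a median of 10.47%. The means differed by -0.999 percentage points (exact permutation test, adjusted p = 0.0491), with 1 larva at 9 hpe above all the younger ones. That larva was replicate 5, and without it the difference was -1.29 points (adjusted p = 0.00466, exact permutation test). The last number in its title lies apart from those of the other day-night larvae at 9 hpe, and whether this matters was not tested. Without any single one of 13 of the other larvae the call was lost, at an adjusted p of up to 0.0738. With no model left out for its counts the difference was -1.89 points (adjusted p = 0.0236, exact permutation test). Of the same remaining counts, models whose identifiers start with TCONS took 0.716% to 0.941% at 9 hpe and 0.730% to 0.964% at 1 hpe. The difference did not pass (exact permutation test, adjusted p = 0.576). Of the 363 tested models with TCONS identifiers, 20 rose and 30 fell (5.51% and 8.26%).

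Complete switches between the ages were few and weak. Of all deposited models, 3 had a count in all 8 larvae at 9 hpe and none at 1 hpe, and 2 had a count in all 7 larvae at 1 hpe and none at 9 hpe. They averaged at most 11.8 counts per larva and were too rare for the test. With at least 4 larvae required at one age and none at the other, 80 models were found at 9 hpe and 173 at 1 hpe. The larvae at 1 hpe had higher totals on average, so these numbers do not show more switches in one direction. Of the models with a count in all 15 larvae, 11748 were tested and 2912 of those changed.

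Larvae of the same age were not alike. The first principal component of log2 CPM over the 15 larvae held 18.2% of the variance and separated the ages, the older larvae scoring 33.08 to 56.01 and the younger ones -69.7 to -29.3. The second component, with 9.86%, ran across both ages. It was highest in replicates 5 and 1 at 9 hpe (59.6 and 48.97) and in replicates 6 and 4 at 1 hpe (50.8 and 42.4). It was lowest in replicates 3 and 2 at 9 hpe (-48.3 and -33.5) and in replicate 3 at 1 hpe (-50.6). Most of these larvae also stood together when each larva was described by its deviation from the mean of its own age and regime. Replicate 4 at 1 hpe was an exception, correlating at 0.114 with replicate 1 and at 0.075 with replicate 5 at 9 hpe. Across the ages, replicate 3 at 9 hpe correlated at 0.232 with replicate 3 at 1 hpe, and replicates 1 and 5 at 9 hpe at 0.185 and 0.176 with replicate 6 at 1 hpe. These are correlations over the tested models, which are not independent of each other, and are given as a description. With clusters of alike larvae as terms in the fit of all larvae, an alternative chosen after seeing the data, 2019 models changed and not 3127, of which 1841 were called without the terms too. With 11 surrogate variables as terms 811 models changed, 731 of them among the 3127. What the alike larvae share was not tested, as the labels give no parent.

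**Figure D3:**
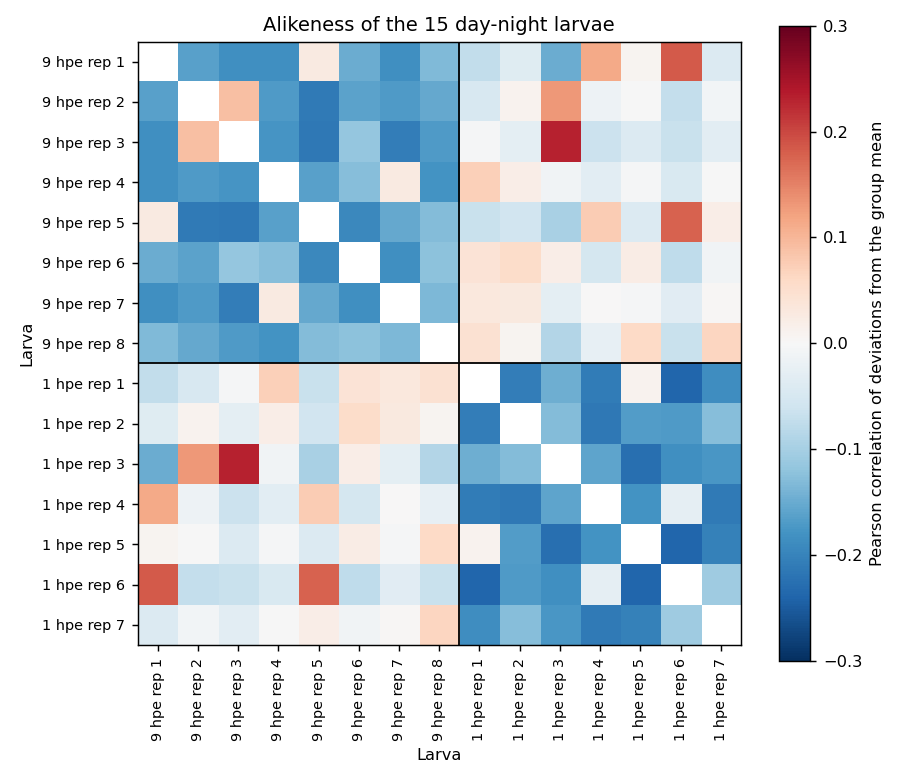
Pearson correlation, over the 14188 tested models, of the deviations of the 15 day-night larvae from the mean of their own age, with the 9 hpe larvae above and left of the 1 hpe larvae. Values within an age are lowered by the centring. The highest values across the ages are 0.232 (replicate 3 at 9 hpe with replicate 3 at 1 hpe) and 0.185 (replicate 1 at 9 hpe with replicate 6 at 1 hpe).

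The spread between larvae was close at both ages. The SD of log2 CPM had a median of 0.556 over the tested models at 9 hpe and 0.565 at 1 hpe. For the risen models it was 0.341 at 9 hpe and 0.407 at 1 hpe, and for the fallen models 0.395 at 9 hpe and 0.373 at 1 hpe. The biological coefficient of variation that edgeR estimated within each age was 0.570 at 9 hpe and 0.587 at 1 hpe.

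The age change was also read on models chosen by the contrasts of the other regimes. Those contrasts compare other larvae, but the spread behind their p-values was estimated over all 43, the day-night larvae included. Both other regimes called 190 models as risen with age and 351 as fallen. The 190 models averaged 5.99 to 6.22 log2 CPM in the day-night larvae at 9 hpe, with a median of 6.09, and 4.596 to 4.92 at 1 hpe, with a median of 4.81. The 351 models averaged 5.97 to 6.26 at 9 hpe and 7.04 to 7.40 at 1 hpe. No larva of one age reached the range of the other on either list. At 9 hpe replicate 5 lay at the far end on both, at 6.22 and 5.97, and at 1 hpe replicate 4 lay at the opposite end, at 4.596 and 7.40. In the day-night larvae themselves 153 of the 190 models were called as risen (80.5%) and 307 of the 351 as fallen (87.5%), and 0 went the other way, while 9.94% and 12.1% of all tested models were called.

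**Figure D4:**
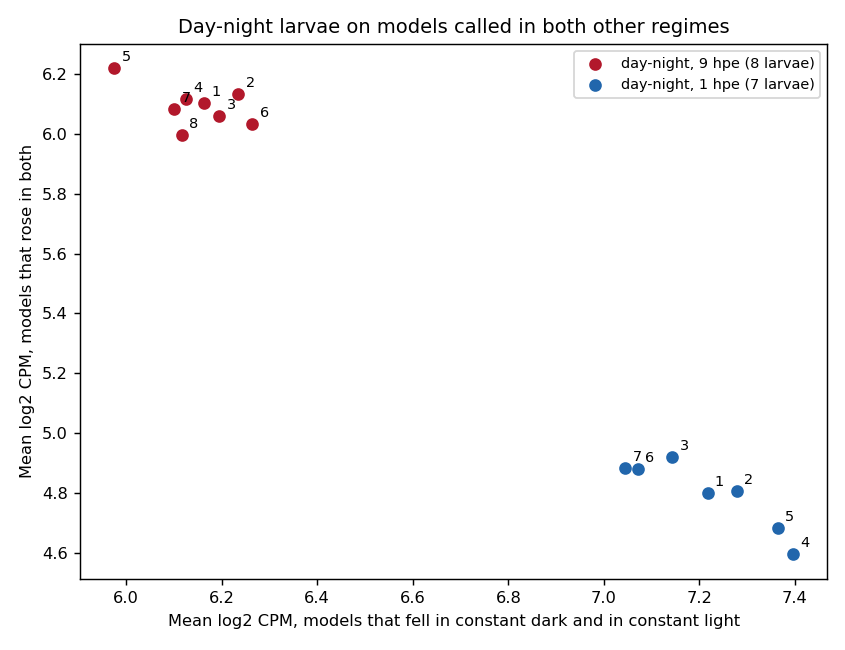
Mean log2 CPM in each day-night larva of 351 models that fell with age in constant dark and in constant light (horizontal axis) and of 190 models that rose in both (vertical axis). Each point is 1 larva, numbered by its replicate. The 8 larvae at 9 hpe lie at 5.97 to 6.26 and 5.99 to 6.22, apart from the 7 larvae at 1 hpe.

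On models chosen in the third regime, the median age change under day-night light was larger in size than that in constant light. Against constant dark it was larger for models that rose in constant light and close in size for those that fell there. For the 373 models that rose in constant light the median log2 fold change was 0.68 under day-night light against 0.51 under constant dark, and 62.2% of them changed by a larger amount in day-night. For the 494 that fell in constant light it was -0.85 under day-night light against -0.78 under constant dark, with 51% larger in day-night. For the 1332 models that rose in constant dark it was 0.57 in day-night and 0.29 in constant light, with 77% larger in day-night. For the 1506 that fell in constant dark it was -0.72 in day-night and -0.32 in constant light, with 78.3% larger in day-night. Over all tested models 49.8% had a larger absolute fold change in day-night than in constant dark and 60.1% a larger one than in constant light. These medians are descriptions over models. The age comparison of each regime rests on its own larvae, and 20% of the tested models were called in constant dark and 6.11% in constant light.

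The difference between regimes was tested as an interaction, model by model. The age change differed between day-night and constant-dark larvae for 133 models, 0.937% of those tested (edgeR quasi-likelihood F test, adjusted p below 0.05). It was more upward in day-night for 111 and more downward for 22. With the replicate number as a block the 133 became 77. The 111 models had a median log2 fold change of 1.66 in day-night and 0.13 in constant dark. Their median level was 156 CPM at 9 hpe and 44.8 CPM at 1 hpe in day-night, and 50.5 CPM at 9 hpe and 43.1 CPM at 1 hpe in constant dark. In constant light, whose levels were not part of that contrast although its larvae entered the estimate of the spread, the median was 0.59 and 93 of the 111 had a positive fold change, where 50.1% of all tested models did. Of the 111, 103 were called as risen in day-night, and the share among all risen models was not compared. The 22 models had medians of -1.16 in day-night and 1.39 in constant dark. Their median levels in day-night were low, at 4.66 CPM at 9 hpe and 15 CPM at 1 hpe.

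Against constant light the age change differed for 368 models, 2.59% of those tested. The count became 146 with no filter on low counts, 154 with the replicate number as a block, 170 with surrogate variables and 611 with DESeq2. Here 221 were more downward and 147 more upward in day-night. The 221 had a median log2 fold change of -1.04 in day-night and -0.07 in constant light. They stood at a median of 83.3 CPM at 9 hpe and 191 CPM at 1 hpe in day-night, and at 131 CPM at 9 hpe and 162 CPM at 1 hpe in constant light. In constant dark, whose levels were likewise not part of the contrast, their median was -0.65, and 206 of the 221 had a negative fold change, where 49.1% of all tested models did. The 147 had medians of 1.36 in day-night and 0.02 in constant light, and of 0.40 in constant dark, where 113 were positive against 50.9% of all tested models. In day-night 201 of the 221 were called as fallen and 130 of the 147 as risen. The share among all fallen or all risen models was not compared. The comparisons with constant dark and with constant light share the day-night larvae, so their counts are not independent of each other.

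**Figure D5:**
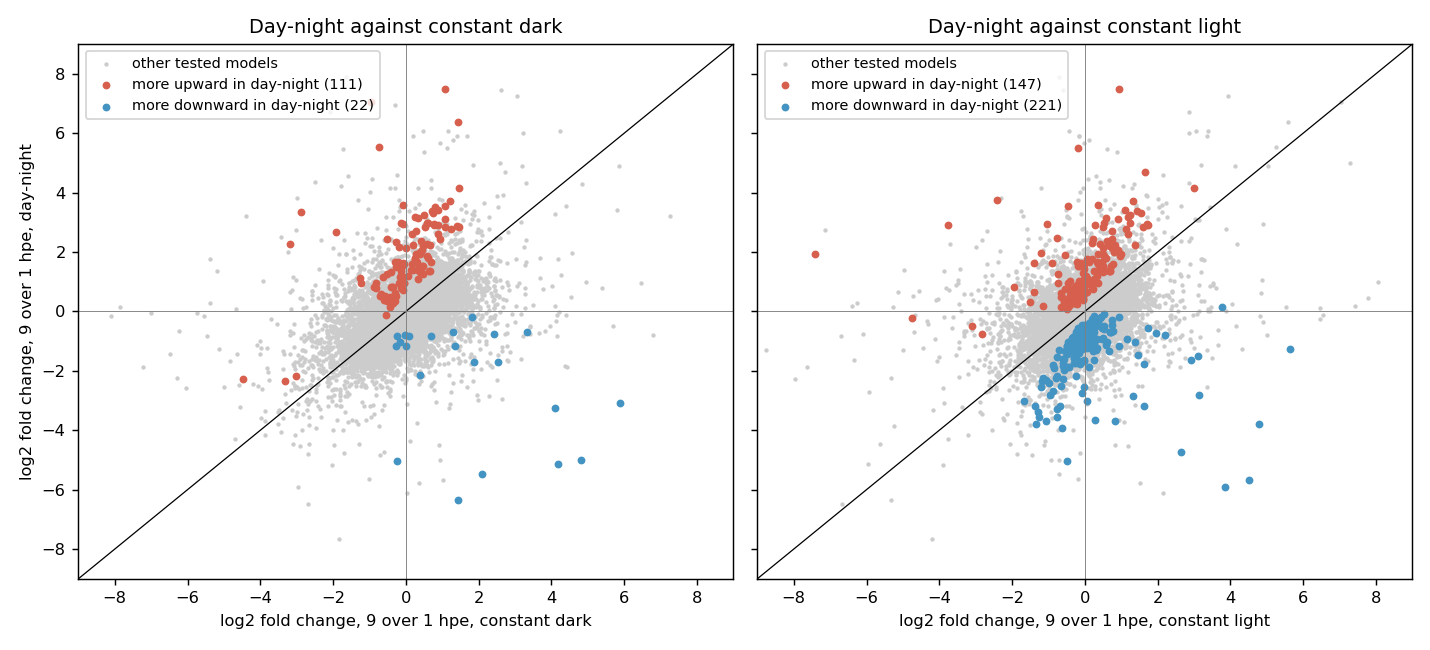
Log2 fold change from 1 to 9 hpe of the 14188 tested models in day-night larvae (vertical axis) against constant-dark (left) and constant-light larvae (right). The diagonal marks equal change, and coloured points are models whose age change differed at an adjusted p below 0.05. Against constant dark 111 of 133 lie above the diagonal, and against constant light 221 of 368 lie below it.

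The named models differed in how their age change compared between regimes. Aqu2.1.44215_001 rose in all 3 regimes, with log2 fold changes of 3.30 in day-night, 0.76 in constant dark (edgeR adjusted p = 0.000732) and 1.55 in constant light (adjusted p = 1.91e-08). The day-night rise exceeded that in constant dark by 2.55 ± 0.23 SE (edgeR adjusted p = 5.79e-10) and that in constant light by 1.76 ± 0.23 SE (adjusted p = 3.81e-06). Its mean at 9 hpe was 204.7 CPM under day-night light, against 40.9 ± 2.25 CPM under constant dark (SD, n = 7) and 71.3 ± 13.9 CPM under constant light (SD, n = 7), and the lowest day-night larva at 125.9 CPM lay above the highest of the others at 97.8 CPM.

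Aqu2.1.26042_001 followed the same order. It rose by 3.23 on the log2 scale in day-night, 0.49 in constant dark (edgeR adjusted p = 0.0472) and 1.24 in constant light (adjusted p = 1.62e-05). The day-night rise was larger than in constant dark by 2.74 ± 0.25 SE (edgeR adjusted p = 1.12e-09) and than in constant light by 2.00 ± 0.25 SE (adjusted p = 2.84e-06). Its levels at 9 hpe were 580 to 1381 CPM under day-night light, 109.5 to 183 CPM under constant dark and 185 to 347 CPM in constant light.

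Aqu2.1.28587_001 fell to a mean of 134 CPM in day-night, and to 141 ± 24.6 CPM in constant dark (SD, n = 7) and 416 ± 86 CPM in constant light (n = 7). Its day-night change differed from that in constant dark by 0.0054 ± 0.20 SE (edgeR adjusted p = 0.998) and from that in constant light by -1.80 ± 0.20 SE (adjusted p = 1.52e-07). For Aqu2.1.41799_001 the day-night change differed by -0.59 ± 0.37 SE from constant dark (edgeR adjusted p = 0.699) and by -0.59 ± 0.37 SE from constant light (adjusted p = 0.474), and neither passed. At 1 hpe its mean was 932 CPM under day-night light, 467 ± 116 CPM under constant dark (SD, n = 7) and 378 ± 170 CPM under constant light (SD, n = 7).

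Some models with consecutive identifier numbers were called together. Of 7934 pairs in which both models were tested, both rose in 184, both fell in 205, and 1 rose and the other fell in 232. Where the lower-numbered model rose, 18.8% of the next ones rose, against 12.4% of the next ones over all pairs. Where it fell, 19.6% of the next ones fell, against 13.4% over all pairs. These are descriptions with no test. What the order of the numbers stands for is not given in the sources used here. Neighbouring models may share reads, which these sources do not settle.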

How the data were processed

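Single larvae were sequenced with CEL-Seq2 after TRIzol extraction, per the labels' protocols. Raw counts of each transcript model in each larva were deposited by the authors, without the features of spike-in RNA and bacteria, per the file name. Names of the aligner, counter, genome build and annotation were not given in the sources used here. A table of normalized counts of the same larvae was not used here. Groups came from the sample titles, and replicates are separate larvae. As a check for duplicate deposits of a library, the counts of all 49 pairs of day-night larvae of 1 age were compared, and the chi-square was at least 11.5 per degree of freedom with reads taken as independent.

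Counts were filtered with filterByExpr (minimum count 10), scaled with TMM and fitted with 1 mean for each group over all 43 larvae in edgeR 4.0.16 (R 4.3.3), with robust quasi-likelihood dispersions and p-values adjusted over all 14188 tested models. Each SE is the log2 fold change divided by the square root of F. The fit was tested on simulated data. Log2 CPM used a prior count of 2. Measures per larva were tested by exact permutation over 6435 splits. Depths ran from 1890954 to 3927366 counts per larva over the series. The p-values judge differences against the spread between larvae, which were taken as independent although some were alike across the ages. Alternatives used DESeq2 1.42.0, limma 3.58.1 and sva 3.50.0.

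In each direction the named models are the called one with the smallest p among those changed at least 2-fold at 20 CPM or more in the higher age, and the called one with the largest difference in mean CPM, leaving out models with 4000 or more counts in any larva. Lists of genes by function were not analysed here, because the identifiers could not be paired with names. Groups, rules and tests were chosen with earlier results of these data known.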

Additional observations from a re-analysis of the deposited data

Results flagged for a closer look

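Of 22 sets of day-night values checked for a larva far from the others, 2 held one, and about 1 in 20 would by chance. With models of 4000 or more counts left out, replicate 5 at 9 hpe had 11.6% of its remaining counts in the 100 most abundant. The next larva had 10.1%, a gap of 0.552 of the range. For Aqu2.1.41799_001 replicate 4 at 1 hpe had 1829 CPM and the next larva 962 CPM, a gap of 0.692 of the range. Without that larva the log2 fold change was -1.67 and still passed (edgeR adjusted p = 3.57e-06).

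Age changes that differed between regimes by an edgeR interaction test were found for 3 named models. The difference in log2 fold change, day-night minus constant dark, was 2.55 for Aqu2.1.44215_001 and 2.74 for Aqu2.1.26042_001. Day-night minus constant light, it was 1.76 for Aqu2.1.44215_001, 2.00 for Aqu2.1.26042_001 and -1.80 for Aqu2.1.28587_001. Over all tested models 133 differed between day-night and constant dark and 368 between day-night and constant light.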

How the results depend on the processing

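The number of models changed with age in day-night larvae ran from 2657 to 3219 when each of the 15 larvae was left out in turn, with 1139 to 1493 risen and 1490 to 1753 fallen. With surrogate variables as terms it was 811, with 386 risen and 425 fallen, and with clusters of alike larvae as terms 2019, with 866 risen. With library totals alone 2334 rose and 1140 fell, the last 2 settings having been chosen after seeing the data. It was 2855 with limma voom, 3463 with DESeq2 and 2383 with no filter on low counts. Age changes that differed from constant dark numbered 111 to 136 with 1 larva left out and those that differed from constant light 263 to 420. The count against constant light became 146 with no filter, 611 with DESeq2 and 170 with surrogate variables.

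With the replicate number as a block within each regime, 2560 models changed with age, and the differences numbered 77 from constant dark and 154 from constant light. Of the same-number pairs across the ages, 1 of 7 correlated above 0.1, and 1 of 7 larvae at 1 hpe correlated best with its own number. Whether equal numbers link larvae is not given by the labels and was not tested.

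Models detected at equal depth differed by -1003 to -683 with 1 larva left out, by -595 when thinned to 1000000 counts and by -292 when 3 counts were needed, and neither of the last 2 passed. Outside the models of 4000 or more counts, the share of the 100 most abundant differed by -1.29 to -0.886 points with 1 larva left out. It differed by -0.521 points for 50 models, which did not pass. Mean log10 totals differed by -0.0965 to -0.0612 and the TCONS share by -0.0445 to -0.0055 points with 1 larva left out. All 292 alternative values for the 4 named models and their 12 results kept their side of the threshold, and no called one changed sign. Depth limits rare models, of which 33223 were not tested.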
